A study of Mus musculus with 8 samples.

Results

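The 10 genes examined were those of the mouse MHC class II pathway named H2-Ea-ps (ENSMUSG00000036322), H2-Eb1 (ENSMUSG00000060586), H2-Aa (ENSMUSG00000036594), H2-Ab1 (ENSMUSG00000073421), H2-DMa (ENSMUSG00000037649), H2-DMb1 (ENSMUSG00000079547), H2-DMb2 (ENSMUSG00000037548), H2-Oa (ENSMUSG00000024334), Cd74 (ENSMUSG00000024610) and Ciita (ENSMUSG00000022504), of 39056 genes in the count table. H2-Ea-ps was picked because it had counts in HVCN1 null hearts only, so it was chosen by the very counts compared here, and its values are a description and carry no test. The other 9 genes were listed as the family to which it belongs. RNA-seq was done on heart samples from 4 male HVCN1 null (Hv1 null) mice and 4 male wild-type (WT) mice, each 3 months old. There was 1 library of poly-A RNA per heart, and the study does not state which parts of each heart were taken. HVCN1 is a voltage-gated proton channel, and the comparison asks which transcripts differ in the heart when its gene is disrupted. The study's methods name C57BL/6 as the background beside the WT mice, and no further detail of the null strain or of littermates is given, so the disrupted gene and any other difference between the mouse stocks cannot be told apart.

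MHC class II molecules are cell surface proteins made of an alpha and a beta chain, and they present peptides from engulfed proteins to CD4+ T cells. In the mouse the H2-A molecule is built from the products of H2-Aa and H2-Ab1, and the H2-E molecule from those of H2-Ea and H2-Eb1. The invariant chain Cd74 guards the new molecules on their way to endosomes, H2-DM loads the peptide, H2-O restrains H2-DM, and Ciita is the coactivator that switches the whole set on. In the heart, resident macrophages, dendritic cells and B cells are the usual carriers of class II molecules. In RNA of heart tissue, fewer such cells and less RNA per cell therefore cannot be told apart. Of the mouse MHC haplotypes, the one carried by C57BL/6 lacks a transcribed H2-Ea gene, and GENCODE M21 lists this gene as the polymorphic pseudogene H2-Ea-ps. Reads were aligned to the mouse build GRCm38, and whether sequence differences between the mouse stocks altered the counts of class II genes was not tested.

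Levels are given as CPM, the counts of a gene scaled to a common library size after TMM normalization in edgeR. Total counts lay between 25851255 and 36396297 in HVCN1 null hearts and between 32595114 and 38874640 in WT hearts. Hvcn1 itself was measured at 0.180, 0.161, 0.0380 and 0.0848 CPM in HVCN1 null hearts 1 to 4 and at 2.58, 1.51, 2.62 and 2.30 CPM in WT hearts 5 to 8, so every library matched its label. The cardiomyocyte markers (Myh6, Actc1, Tnnt2, Tnni3, Myl2 and Ryr2) were all detected and summed to between 47267 and 61152 CPM per heart. Genes of the atrium divided the hearts in another way, since Myl7, the atrial myosin light chain, lay between 578 and 1185 CPM in HVCN1 null hearts 2 and 3 and WT hearts 5 and 7, but between 0.169 and 33.6 CPM in the other 4 hearts.

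The alpha chain genes H2-Ea-ps and H2-Aa lie on chromosome 17 (GRCm38), H2-Ea-ps at 34341959 to 34344645 and H2-Aa at 34282744 to 34287823, both on the minus strand. The annotated H2-Ea-ps transcript has 4 exons and 1036 bases with no annotated start codon, whereas that of H2-Aa has 5 exons and 1128 bases with one. The immunoglobulin-like domain of the alpha chain is encoded by 1 exon, which has 282 bases in both genes, exon 2 of H2-Ea-ps (chr17:34343628-34343909) and exon 3 of H2-Aa (chr17:34283575-34283856). Both are shown because the finding on H2-Ea-ps rests on reads that can be told from those of its relatives. They were taken from GENCODE M21 transcripts and are written 5′ to 3′ in the direction of transcription, with capitals at the bases that differ.
H2-Ea-ps: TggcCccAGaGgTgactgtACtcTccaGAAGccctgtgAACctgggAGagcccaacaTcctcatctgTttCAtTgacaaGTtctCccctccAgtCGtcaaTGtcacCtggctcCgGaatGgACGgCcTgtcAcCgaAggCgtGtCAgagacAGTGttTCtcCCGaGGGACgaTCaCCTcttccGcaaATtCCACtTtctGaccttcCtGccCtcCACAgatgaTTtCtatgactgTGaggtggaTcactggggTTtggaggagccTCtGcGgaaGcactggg
H2-Aa: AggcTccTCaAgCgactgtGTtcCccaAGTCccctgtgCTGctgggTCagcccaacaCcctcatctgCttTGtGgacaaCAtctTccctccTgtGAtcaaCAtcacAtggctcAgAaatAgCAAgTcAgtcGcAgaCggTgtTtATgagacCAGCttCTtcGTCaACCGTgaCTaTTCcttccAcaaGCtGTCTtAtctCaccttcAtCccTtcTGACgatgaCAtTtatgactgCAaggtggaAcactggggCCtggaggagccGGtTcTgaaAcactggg
The exons differ at 95 bases and are identical at 187 (66.3%), and their longest identical run is 10 bases. No stretch of 50 bases, the length of a read, is shared between the 987 such stretches of H2-Ea-ps and the transcripts of any other annotated gene, and no annotated gene overlaps it. Counts assigned to H2-Ea-ps are therefore not reads that fit H2-Aa equally well over their whole length.

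H2-Ea-ps was present in every HVCN1 null heart and in no WT heart. It was measured at 7.63, 10.1, 15.1 and 10.8 CPM in HVCN1 null hearts 1 to 4 and at 0 CPM in WT hearts 5 to 8. The 4 HVCN1 null hearts gave 1411 counts, a mean of 10.9 ± 3.12 CPM (SD, n = 4), and the 4 WT hearts gave 0. A count of 0 allows up to 3 counts over the WT group, or 0.0215 CPM, so the level was at least 506-fold higher in HVCN1 null hearts. This limit covers counting error only. HVCN1 null hearts 2 and 3, with much atrial transcript, gave 10.1 and 15.1 CPM, and hearts 1 and 4, with little, gave 7.63 and 10.8 CPM, so the gene was detected in both kinds of heart. Among the 39056 genes counted, 22 had counts in all HVCN1 null hearts and none in any WT heart, and 16 had the reverse pattern. H2-Ea-ps had the most counts among the 22, a rank drawn from the same counts by which it was picked.

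Set beside its partner chain, H2-Ea-ps amounted to 30.0%, 32.2%, 63.8% and 28.4% of the CPM of H2-Eb1 in HVCN1 null hearts 1 to 4. Against H2-Aa, the other alpha chain, these shares were 24.2%, 26.0%, 52.1% and 24.2%. Heart 3 stood apart in both, with the highest H2-Ea-ps value and the lowest H2-Eb1 and H2-Aa values of its group. Per kilobase of exon, on which levels of different genes can be compared, H2-Ea-ps reached 10.5 ± 3.02 CPM per kb (SD, n = 4), between H2-Ab1 (13.7 ± 2.14) and H2-Aa (9.47 ± 1.88), and its range overlapped those of both. The exon length of H2-Aa, 3798 bases, includes all its annotated isoforms, which lowers its value per kb.

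**Figure D1:**
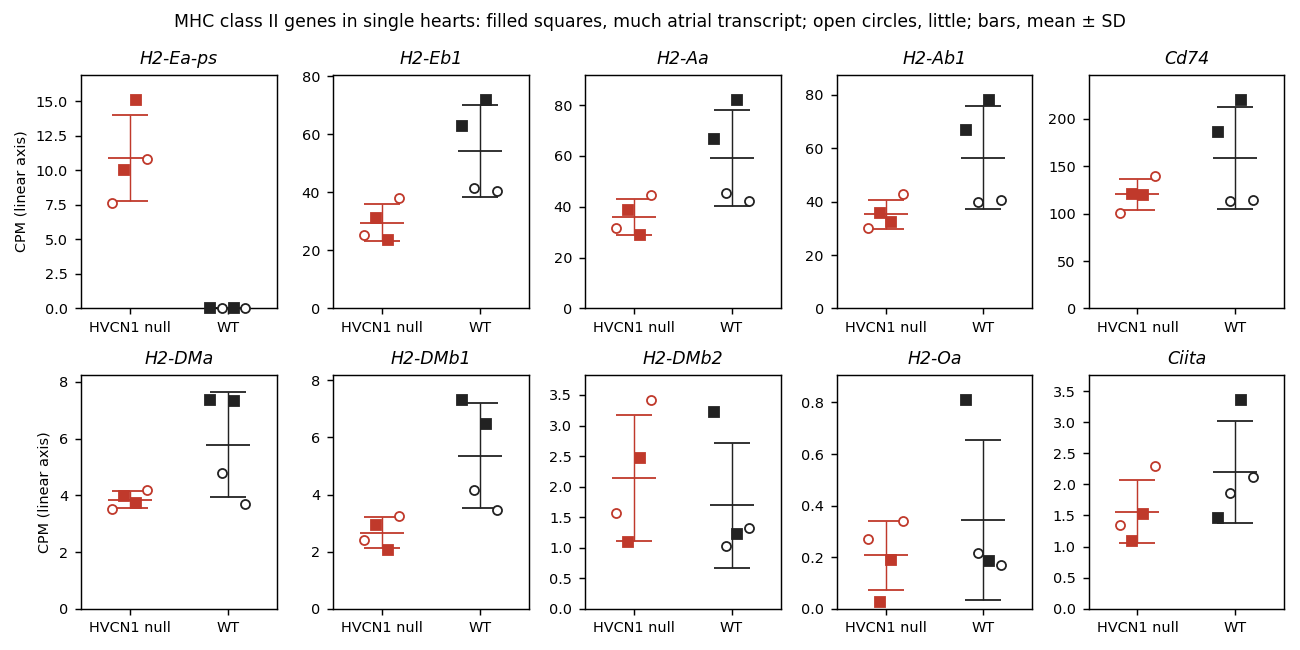
CPM (linear axes, each from 0) of the 10 MHC class II genes in 4 HVCN1 null (red) and 4 WT (black) hearts; each point is 1 heart, filled squares are hearts with a Myl7 level of 578 CPM or more, open circles those with 33.6 CPM or less, and bars give the mean ± SD. H2-Ea-ps was at 0 in all WT hearts, and for H2-Eb1, H2-Aa, H2-Ab1, H2-DMa, H2-DMb1 and Cd74 both filled WT squares lie above every other heart.

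The classical chains H2-Eb1, H2-Aa and H2-Ab1 were each lower on average in HVCN1 null hearts, but none passed the threshold of an adjusted p under 0.05. H2-Eb1, the beta chain that pairs with the H2-Ea product (chromosome 17, 34305867 to 34316674), was measured at 25.5, 31.2, 23.7 and 38.1 CPM in HVCN1 null hearts and at 63.0, 41.5, 72.0 and 40.3 CPM in WT hearts. Every HVCN1 null heart lay below every WT heart, although heart 4 at 38.1 CPM came close to WT heart 8. Gm20513 overlaps H2-Eb1 on the opposite strand but shares no stretch of 50 bases with its transcripts. The group means were 29.6 ± 6.50 and 54.2 ± 15.8 CPM (SD, n = 4 each), and the log2 fold change was -0.87 (standard error, SE, 0.21, adjusted p = 0.104 and unadjusted p = 0.00195 by edgeR's quasi-likelihood test with Benjamini-Hochberg adjustment).

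H2-Aa, the alpha chain of H2-A, was measured at 31.5, 38.6, 29.0 and 44.8 CPM in HVCN1 null hearts and at 66.6, 45.6, 82.2 and 42.2 CPM in WT hearts. WT heart 8 fell below HVCN1 null heart 4, so the groups overlapped. Its log2 fold change was -0.72 (SE 0.22, adjusted p = 0.202 by edgeR's quasi-likelihood test). H2-Ab1, the beta chain of the same molecule (34257689 to 34269419), was measured at 30.1, 35.6, 32.5 and 42.8 CPM and at 67.0, 40.0, 78.2 and 40.6 CPM, with the same 2 WT hearts, 5 and 7, far above all others. Its log2 fold change was -0.68 (SE 0.22, adjusted p = 0.237 by edgeR's quasi-likelihood test).

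Cd74, the invariant chain, lies on another chromosome and was the most abundant of the 10 genes. It was measured at 101, 120, 119 and 140 CPM in HVCN1 null hearts and at 186, 113, 220 and 114 CPM in WT hearts. HVCN1 null hearts 2, 3 and 4 lay above WT hearts 6 and 8, and only WT hearts 5 and 7 exceeded the whole HVCN1 null group. The means were 120 ± 16.1 and 159 ± 53.6 CPM (SD, n = 4 each), with a log2 fold change of -0.40 (SE 0.21, adjusted p = 0.567 by edgeR's quasi-likelihood test). Without WT heart 7 it was -0.20.

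Of the peptide loading genes, H2-DMa and H2-DMb1 followed the classical chains and H2-DMb2 did not. H2-DMb1, a beta chain of H2-DM (chromosome 17, 34153072 to 34160230), was measured at 2.40, 2.94, 2.05 and 3.25 CPM in HVCN1 null hearts and at 7.31, 4.17, 6.48 and 3.44 CPM in WT hearts. The groups did not overlap, and its log2 fold change was -1.01 (SE 0.26, adjusted p = 0.116 by edgeR's quasi-likelihood test). H2-DMa, the alpha chain of H2-DM (34119541 to 34139101), had means of 3.85 ± 0.294 and 5.79 ± 1.85 CPM (SD, n = 4 each), with WT heart 8 at 3.68 CPM inside the HVCN1 null range, and a log2 fold change of -0.59 (SE 0.22, adjusted p = 0.322 by edgeR's quasi-likelihood test).

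H2-DMb2, the other beta chain gene of H2-DM (34143307 to 34151555), was measured at 1.56, 1.10, 2.47 and 3.42 CPM in HVCN1 null hearts and at 3.21, 1.02, 1.22 and 1.32 CPM in WT hearts. The highest values came from 1 heart of each group, HVCN1 null heart 4 and WT heart 5. Its log2 fold change was 0.32 (SE 0.43, adjusted p = 0.891 by edgeR's quasi-likelihood test), and without HVCN1 null heart 4 it was -0.0072. Since 22.7% of the stretches of 50 bases in H2-DMb1 also occur in H2-DMb2, the division of counts between these neighbours is uncertain. H2-DMa likewise shares 8.43% of its stretches with Brd2, which overlaps it on the opposite strand, and whether the counting used strand is not given in the sources used here.

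H2-Oa, the alpha chain of H2-O (34092340 to 34095234), gave 27 counts in the HVCN1 null group and 51 in the WT group, too few for the filter on low counts. It was measured at 0.270, 0.0268, 0.190 and 0.339 CPM and at 0.810, 0.216, 0.185 and 0.169 CPM, and the WT mean rested on heart 5. The difference in mean CPM was -0.138 (HVCN1 null minus WT, two-sided exact permutation test, p = 0.600, adjusted p = 0.600 over 2 genes, n = 4 each). Without WT heart 5 it was 0.0164. H2-Oa overlaps BC051537 on the opposite strand, with which it shares 15.5% of its stretches of 50 bases. H2-Ob, the beta chain of H2-O and not one of the 10 genes, had a log2 fold change of -0.13 (SE 0.42, adjusted p = 0.965 by edgeR's quasi-likelihood test). H2-Eb2, a second beta chain gene beside H2-Eb1, gave 8 and 19 counts (exact permutation p = 0.229, adjusted p = 0.457 over the same 2 genes).

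Ciita, the class II coactivator (chromosome 16, 10480059 to 10528418), was measured at 1.35, 1.10, 1.52 and 2.29 CPM in HVCN1 null hearts and at 1.47, 1.85, 3.36 and 2.13 CPM in WT hearts. The ranges overlapped broadly, and only WT heart 7 lay above all HVCN1 null hearts. Dexi overlaps Ciita on the opposite strand, and 1.46% of the stretches of 50 bases in Ciita also occur in it. Its log2 fold change was -0.49 (SE 0.31, adjusted p = 0.663 by edgeR's quasi-likelihood test). Without WT heart 7 it was -0.20, and without HVCN1 null heart 4 it was -0.74.

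Counted together, 9 of the 10 genes passed the filter on low counts and 8 of these, all but H2-Ea-ps, were tested. By edgeR's quasi-likelihood test 0 of the 8 passed an adjusted p under 0.05, where 1.14% of all 14796 tested genes did so. At an unadjusted p under 0.05 there were 5 of 8 (H2-Eb1, H2-Aa, H2-Ab1, H2-DMa and H2-DMb1), all lower in HVCN1 null hearts, against 5.52% of all tested genes in that direction and 11.0% in either. These 5 varied together over the hearts (r of log2 CPM with H2-Aa from 0.932 to 0.990), so they are not 5 separate observations. Of the 8, 7 had a log2 fold change below 0, against 52.7% of all tested genes, and their median was -0.64, against -0.01. The groups did not overlap for 2 of the 8, H2-Eb1 and H2-DMb1, with HVCN1 null lower in both, as for 3.45% of all tested genes.

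The calls changed with the tool. DESeq2 called 3 of the 8, all lower in HVCN1 null hearts (H2-Eb1 at an adjusted p of 0.00437, H2-DMb1 at 0.0121 and H2-Aa at 0.0425), where it called 1.26% of all tested genes lower. With a score of atrial genes as a covariate, edgeR called 4 lower (H2-Eb1 at an adjusted p of 0.0188, H2-DMb1 at 0.0288, H2-Ab1 at 0.0293 and H2-Aa at 0.0348), where it called 0.595% of all tested genes lower. Without the filter on low counts edgeR called 1, H2-Eb1, at an adjusted p of 0.0443, where it called 0.317% of all genes lower. The 13 other alternatives, limma's voom and the fits without 1 heart among them, called 0 of the 8.

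In WT hearts the order of levels per kilobase of exon was Cd74 (94.5 ± 31.9 CPM per kb, SD, n = 4), H2-Eb1 (27.9 ± 8.13), H2-Ab1 (22.0 ± 7.47), H2-Aa (15.6 ± 4.94), H2-DMb1 (3.18 ± 1.09), H2-DMa (1.68 ± 0.537), H2-DMb2 (0.968 ± 0.585), H2-Oa (0.245 ± 0.221), Ciita (0.231 ± 0.0857) and H2-Ea-ps at 0. Cd74 lay wholly above H2-Eb1 in this order, whereas the ranges of H2-Eb1, H2-Ab1 and H2-Aa overlapped each with the next. H2-Aa lay wholly above H2-DMb1, and H2-DMb2 wholly above H2-Oa. In HVCN1 null hearts Cd74 again led, at 71.6 ± 9.56 CPM per kb, and H2-Ea-ps took the fourth place. The exon lengths join all annotated isoforms of a gene. For H2-Aa this is 3798 bases, although its transcript described above has 1128, and for H2-Ea-ps it is 1036. The places of H2-Aa in both groups, and of H2-Ea-ps beside it, therefore depend on the annotation.

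Most class II genes had log2 differences between the genotypes that lay further below 0 in hearts with much atrial transcript than in those with little, as the points of single hearts show. These 2 classes were set from the Myl7 level and are not groups of the study, and each holds 2 hearts of each genotype. In hearts with much atrial transcript H2-Eb1 was at 31.2 and 23.7 CPM in HVCN1 null and at 63.0 and 72.0 CPM in WT hearts, a log2 difference of the means of -1.30. In hearts with little it was at 25.5 and 38.1 CPM in HVCN1 null and at 41.5 and 40.3 CPM in WT hearts, a log2 difference of -0.36. The mean of HVCN1 null hearts was thus similar in both classes (27.5 and 31.8 CPM), whereas that of WT hearts was 67.5 and 40.9 CPM.

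The same contrast was seen in H2-Aa, with log2 differences of -1.14 and -0.20, and in H2-Ab1, with -1.09 and -0.14. H2-DMa gave -0.93 and -0.14, and H2-DMb1 gave -1.47 and -0.43. Cd74 was lower in HVCN1 null hearts with much atrial transcript (-0.76), but its log2 difference was 0.08 in those with little. Ciita gave -0.88 and -0.13, with overlapping hearts in both classes, and H2-DMb2 gave -0.31 and 1.09. H2-Eb1 and H2-DMb1 were the 2 tested genes of the 8 for which HVCN1 null hearts lay wholly below WT hearts in both classes. This follows from their lack of overlap over all hearts, seen in 3.45% of all tested genes, and is no separate result.

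With these classes in the edgeR fit, 6 of the 8 genes had an unadjusted p under 0.05 for HVCN1 null against WT in hearts with much atrial transcript, where 6.31% of all tested genes did. In hearts with little it was 0 of 8, where 7.81% did. For the interaction of genotype and class, which tests the difference itself, 6 of the 8 had an unadjusted p under 0.05, where 1.99% of all tested genes did. Their interaction estimates had a median of -0.93 over the 8 genes on the log2 scale, as in H2-Eb1 (-0.93, standard error 0.29, unadjusted p = 0.00997). None of the 8 passed the adjustment (edgeR quasi-likelihood, lowest adjusted p = 0.9999), nor did any of the 14796 genes. The classes and the interaction were chosen after the values were seen. The 6 genes with an unadjusted p under 0.05 varied together over all hearts (r of log2 CPM with H2-Aa from 0.905 to 0.990). They are therefore not 6 separate observations.

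Ratios of 4 class II transcripts to H2-Aa were compared within hearts, and for 2 of them the genotypes did not overlap. The log2 ratio of H2-Eb1 to H2-Aa was -0.30, -0.31, -0.29 and -0.23 in HVCN1 null hearts and -0.08, -0.14, -0.19 and -0.06 in WT hearts. The groups did not overlap, and the mean difference was -0.17 (two-sided exact permutation test, p = 0.0286, the smallest that 4 against 4 hearts allow, adjusted p = 0.0571 over 4 ratios). H2-Eb1 was therefore lower relative to H2-Aa in 4 of 4 HVCN1 null hearts, with linear ratios of 0.821 and 0.922, a shift that missed the threshold after adjustment.

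The log2 ratio of Cd74 to H2-Aa was 1.68, 1.64, 2.04 and 1.65 in HVCN1 null hearts and 1.49, 1.31, 1.42 and 1.44 in WT hearts. Here every HVCN1 null heart lay above every WT heart, with a mean difference of 0.34 (exact permutation p = 0.0286, the smallest allowed, adjusted p = 0.0571). The ratio of H2-Ab1 to H2-Aa, the 2 chains of 1 molecule, had means of -0.02 ± 0.12 and -0.08 ± 0.08 (SD, n = 4 each, log2), and its difference of 0.06 was within the spread (exact permutation p = 0.600, adjusted p = 0.600). For H2-DMa to H2-Aa the difference was 0.16 (exact permutation p = 0.229, adjusted p = 0.305), and 0.08 without HVCN1 null heart 3.

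**Figure D2:**
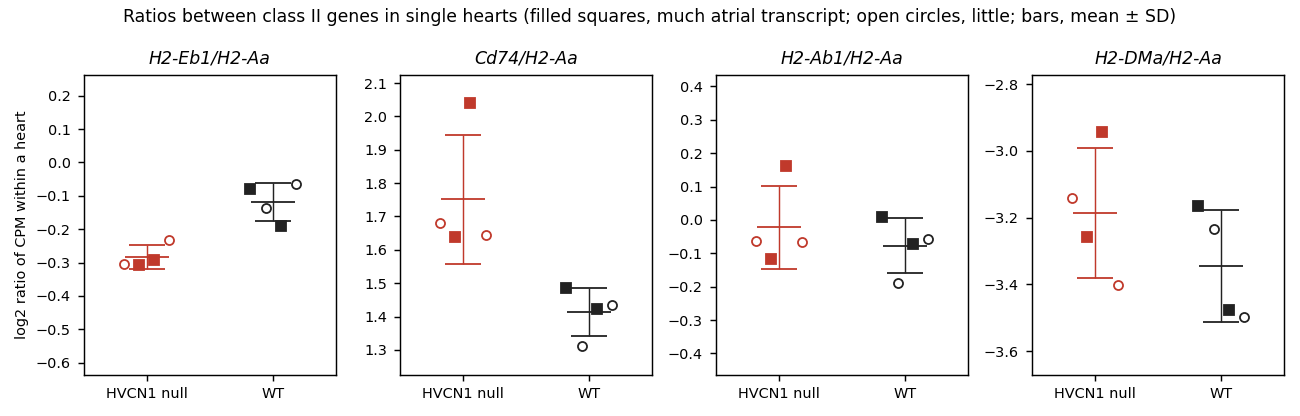
Log2 ratios of CPM between pairs of class II genes within each of 4 HVCN1 null (red) and 4 WT (black) hearts, with the mean ± SD as bars; filled squares are hearts with much atrial transcript, open circles those with little, and the vertical axis has the same span in every panel. The groups lie apart for H2-Eb1/H2-Aa (difference -0.17) and Cd74/H2-Aa (difference 0.34) and overlap for H2-Ab1/H2-Aa and H2-DMa/H2-Aa.

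Over the 8 hearts, log2 CPM of H2-Aa was followed closely by that of the other classical chains. Pearson's r was 0.990 with H2-Eb1 (exact permutation p = 7.44e-05, adjusted p = 8.93e-04 over 12 relations; Spearman's rho = 0.976, exact p = 3.97e-04, adjusted p = 0.00476). With H2-Ab1 it was 0.980 (exact permutation p = 2.48e-04, adjusted p = 0.00149; rho = 0.905, exact p = 0.00456, adjusted p = 0.0183). Without WT hearts 5 and 7, the 2 farthest from the median of H2-Aa, r was 0.976 and 0.924. Taken as deviations from the group means, r was 0.992 and 0.962.

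For Cd74 r was 0.905 (exact permutation p = 0.00397, adjusted p = 0.0119), but rho was 0.619 (exact p = 0.115, adjusted p = 0.172) and r without WT hearts 5 and 7 was 0.434, so the relation rests on those hearts. Leaving out WT heart 5 or 7 alone gave r = 0.879 and 0.810, with adjusted exact permutation p = 0.0690 and 0.0817. For Ciita r was 0.620 (exact permutation p = 0.101, adjusted p = 0.147; rho = 0.548, exact p = 0.171, adjusted p = 0.228), and without WT hearts 5 and 7 it was 0.581. Single hearts moved it from 0.229 (without WT heart 7) to 0.827 (without WT heart 5), and as deviations from the group means it was 0.430.

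**Figure D3:**
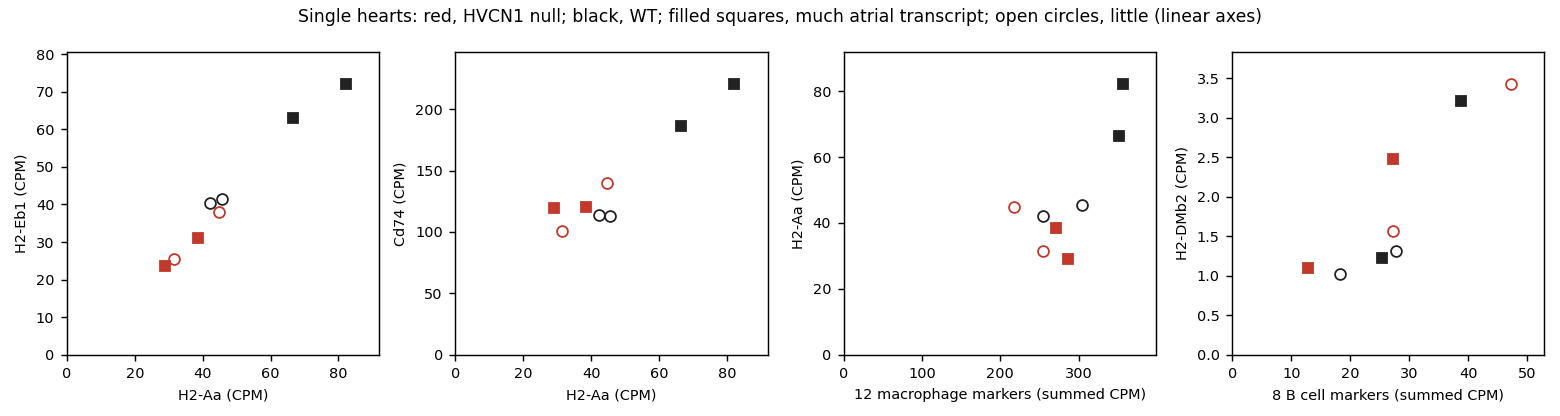
CPM (linear axes) in single hearts of H2-Eb1 and of Cd74 against H2-Aa, of H2-Aa against the summed CPM of 12 macrophage markers, and of H2-DMb2 against that of 8 B cell markers; red points are HVCN1 null, black points WT, filled squares hearts with much atrial transcript and open circles those with little. H2-Eb1 follows H2-Aa along a line in all 8 hearts, whereas H2-DMb2 is highest in HVCN1 null heart 4 (3.42 CPM) and WT heart 5 (3.21 CPM), the hearts with the highest B cell sums (47.3 and 38.8 CPM).

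Markers of the cells that carry class II molecules were measured in the same hearts. All 12 macrophage markers had a log2 fold change below 0, against 52.7% of all tested genes, with a median of -0.32. By edgeR's quasi-likelihood test 0 of 12 passed the adjusted threshold, against 1.14% of all tested genes, and 4 of 12 were lower at an unadjusted p under 0.05, against 5.52%. Their summed level was 217 to 286 CPM in HVCN1 null hearts and 254 to 356 CPM in WT hearts, and WT hearts 5 and 7 again held the highest sums (352 and 356 CPM). No macrophage marker was at 0 in all hearts of a group. The mean log2 CPM of the list had r = 0.659 with H2-Aa (exact permutation p = 0.0713, adjusted p = 0.122; rho = 0.643, exact p = 0.0962, adjusted p = 0.172), -0.128 without WT hearts 5 and 7, and 0.312 as deviations from the group means. With 1 heart left out in turn, r lay between 0.446 and 0.956. The highest value came without HVCN1 null heart 4 (exact permutation p = 0.00198, adjusted p = 0.00794), a heart named here after the values were seen. That heart had the lowest macrophage sum and the highest H2-Aa level of its group, so this p describes a chosen subset. The part of macrophages in the class II levels was not tested.

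Of 9 dendritic cell markers, 6 were tested, with a median log2 fold change of -0.03 over those 6. By edgeR's quasi-likelihood test 0 passed the adjusted threshold, against 1.14% of all tested genes. At an unadjusted p under 0.05 there was 1, lower, against 5.52%. This one, named after its values were seen, was Itgax, the integrin chain CD11c. It was at 0.660 and 1.18 CPM on average in HVCN1 null and WT hearts (log2 fold change -0.85, adjusted p = 0.295 by edgeR's quasi-likelihood test). Its groups did not overlap, as for 3.45% of all tested genes in that direction. The 9 markers summed to 18.5 to 25.0 CPM in HVCN1 null and 22.2 to 23.7 CPM in WT hearts, mostly from Zbtb46, which endothelial cells also express. Flt3, Xcr1 and Clec9a, which define dendritic cells more narrowly, were under the filter, at or below 0.793 CPM in every heart, and were left untested. Each had fewer counts in HVCN1 null than in WT hearts. Xcr1 gave 4 and 21 counts, with no overlap of the groups in CPM, Clec9a gave 20 and 54, and Flt3 gave 13 and 25. WT heart 7 alone gave 30 of the WT counts of Clec9a and 15 of those of Flt3. Of the 6 tested markers, 2 went the other way. These were Siglech (log2 fold change 0.92, adjusted p = 0.510) and Cd209a (0.80, adjusted p = 0.513, both by edgeR's quasi-likelihood test). The list of 9 had r = 0.688 with H2-Aa (exact permutation p = 0.0602, adjusted p = 0.120; rho = 0.619, exact p = 0.115, adjusted p = 0.172), -0.0638 without WT hearts 5 and 7, and 0.364 without WT heart 7 alone. The part of dendritic cells was not tested.

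Markers of further cell types were set beside these. The 4 monocyte markers had a median log2 fold change of -0.65, with sums of 1.85 to 3.79 CPM in HVCN1 null and 3.46 to 7.24 CPM in WT hearts. By edgeR's quasi-likelihood test 0 passed, against 1.14% of all tested genes, and 1 was lower at an unadjusted p under 0.05, against 5.52%. That one was Ccr2, the receptor that draws monocytes into tissue, at 1.05, 1.04, 1.25 and 1.84 CPM in HVCN1 null hearts and at 3.69, 2.26, 4.23 and 2.60 CPM in WT hearts. Its groups did not overlap, as for 3.45% of all tested genes in that direction. Its log2 fold change of -1.30 (standard error 0.27) fell just short of the threshold (edgeR quasi-likelihood adjusted p = 0.0527). Ccr2 is singled out here after its values were seen, and Ly6c2 of the same list had a log2 fold change of 0.20. Ccr2 lies on chromosome 9 at 124101950 to 124113557. Xcr1 of the dendritic cell list lies on the same chromosome at 123852315 to 123862029, so these genes are close neighbours. The 7 T cell markers had a median of 0.02, the 5 endothelial markers -0.11, and the 3 tested markers of lymph node or thymus stroma -0.36. By edgeR's quasi-likelihood test 0 of each list passed, with 0, 0 and 1 at an unadjusted p under 0.05. Of all tested genes 1.14% passed, and 11.0% had such an unadjusted p in either direction. The 6 erythroid markers all had a log2 fold change below 0, against 52.7% of all tested genes, with a median of -0.99 and sums of 1292 to 8391 CPM in HVCN1 null and 3018 to 15228 CPM in WT hearts, and 0 passed (edgeR quasi-likelihood; 2 lower at an unadjusted p under 0.05, against 5.52%). The part of these cells in the class II levels was not tested.

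None of the lymphocyte, erythroid and atrial lists was related to H2-Aa past the threshold. Pearson's r was 0.135 with the B cell list (exact permutation p = 0.749, adjusted p = 0.749; rho = 0.0952, exact p = 0.840, adjusted p = 0.882; 0.0529 without WT hearts 5 and 7). With the T cell list it was 0.140 (exact permutation p = 0.747, adjusted p = 0.749; rho = 0.0714, exact p = 0.882, adjusted p = 0.882; -0.200 without those hearts). With the erythroid list it was 0.604 (exact permutation p = 0.110, adjusted p = 0.147; rho = 0.667, exact p = 0.0831, adjusted p = 0.172; 0.555 without those hearts), and 0.353 as deviations from the group means. With the atrial list it was 0.349 (exact permutation p = 0.395, adjusted p = 0.474; rho = 0.286, exact p = 0.501, adjusted p = 0.601; -0.445 without those hearts), and 0.772 as deviations from the group means.

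H2-DMb2 and H2-Ob, by contrast, went with the B cell markers, which summed to 27.2, 12.8, 27.2 and 47.3 CPM in HVCN1 null hearts and to 38.8, 18.2, 25.4 and 27.8 CPM in WT hearts. For H2-Ob r was 0.913 (exact permutation p = 0.00134, adjusted p = 0.00536; rho = 0.905, exact p = 0.00456, adjusted p = 0.0183), and 0.957 without HVCN1 null heart 4 and WT heart 5, the 2 farthest from its median. For H2-DMb2 r was 0.815 (exact permutation p = 0.0106, adjusted p = 0.0255; rho = 0.881, exact p = 0.00724, adjusted p = 0.0217), but 0.553 without these hearts, so that relation rests on them. Both relations were chosen after the values were seen. The 8 B cell markers themselves had a median log2 fold change of 0.09 between the genotypes. By edgeR's quasi-likelihood test 0 of 8 passed, against 1.14% of all tested genes. At an unadjusted p under 0.05 there were 0, against 11.0% in either direction.

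The proximal promoters of class II genes share an X box and a Y box, the sites bound by the RFX and NF-Y factors before Ciita is recruited. The windows from 130 to 21 bases upstream of the RefSeq start are shown for the 2 classical chains whose promoters were listed, since these genes varied together over the hearts, as given above. They are written 5′ to 3′ in the direction of transcription from the RefSeq annotation of GRCm38.p6, H2-Aa at chr17:34287844-34287953 on the minus strand and H2-Eb1 at chr17:34305737-34305846 on the plus strand, with capitals at matches to TGATTGG, the letters of a Y box, and AACNGATG, those of an X box.
H2-Aa: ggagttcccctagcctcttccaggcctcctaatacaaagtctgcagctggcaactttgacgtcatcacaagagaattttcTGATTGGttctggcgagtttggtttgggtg
H2-Eb1: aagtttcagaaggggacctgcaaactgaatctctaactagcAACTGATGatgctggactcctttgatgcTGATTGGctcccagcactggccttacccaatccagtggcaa
The Y box begins 50 bases upstream of the start in H2-Aa and 61 bases upstream in H2-Eb1, and the X box of H2-Eb1 begins 89 bases upstream. The X box letters were not found in the H2-Aa window. Searched on both strands of windows that run from 250 bases before to 50 after the start, the Y box letters occur in 7.82% of 32851 promoters and the X box letters in 2.32%. Of the members listed there, H2-Eb1, H2-DMb1 and H2-DMb2 held both motifs, H2-Aa and H2-Oa the Y box letters only, and the 2 windows of H2-DMa neither. A match is a description of letters, chosen with the sequences in view, and not evidence of binding.

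The factors that bind these boxes were measured as well. The 7 class II transcription factor genes were Rfx5, Rfxank, Rfxap, Creb1, Nfya, Nfyb and Nfyc. By edgeR's quasi-likelihood test 0 passed the adjusted threshold, against 1.14% of all tested genes. At an unadjusted p under 0.05 there was 1, against 11.0% in either direction. The median log2 fold change of the 7 was -0.0039. The most abundant were Nfyc (37.4 and 32.7 CPM in HVCN1 null and WT, log2 fold change 0.19, adjusted p = 0.373), Rfxank (22.9 and 21.4 CPM, 0.09) and Creb1 (20.5 and 21.3 CPM, -0.05).

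The further genes of the pathway also gave no calls by edgeR's quasi-likelihood test. Of 9 antigen processing genes 0 passed, against 1.14% of all tested genes, with a median of -0.07. At an unadjusted p under 0.05 there were 2, both lower, against 5.52% of all tested genes. The most abundant, the cathepsins Ctsd (478 and 456 CPM in HVCN1 null and WT), Ctsb (441 and 438 CPM) and Ctsl (118 and 124 CPM), had log2 fold changes of 0.07, 0.01 and -0.07. The 2 lower genes, named after their values were seen, were Ctss, the protease that trims Cd74 from class II molecules, at 11.9 to 14.4 CPM in HVCN1 null and 15.4 to 21.9 CPM in WT hearts (log2 fold change -0.42, edgeR quasi-likelihood adjusted p = 0.183), and March1, a ubiquitin ligase that removes class II molecules from the surface (-0.71, adjusted p = 0.421).

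Interferon gamma is the classic inducer of Ciita. Of 15 genes of its signalling and response 14 were tested, with a median log2 fold change of -0.13. By edgeR's quasi-likelihood test 0 passed, against 1.14% of all tested genes. Of the 14, 9 had a log2 fold change below 0 and 5 above, against 52.7% of all tested genes below 0. At an unadjusted p under 0.05 there was 1, lower, against 5.52%. It was Iigp1, named after its values were seen (log2 fold change -0.34, edgeR quasi-likelihood adjusted p = 0.371). Ifngr2, a receptor chain (200 and 193 CPM in HVCN1 null and WT, log2 fold change 0.05), Jak1, its kinase (144 and 134 CPM, 0.11), and Ifngr1, the other receptor chain (40.4 and 44.4 CPM, -0.14), were the most abundant. Ifng itself was under the filter, at or below 0.0759 CPM in every heart. Of 6 T cell costimulation genes 5 were tested and 0 passed (edgeR quasi-likelihood; 0 at an unadjusted p under 0.05), with a median of -0.11, and Cd274, Icosl and Cd86 had log2 fold changes of -0.11, 0.0034 and -0.27.

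Along chromosome 17, the presence of H2-Ea-ps in HVCN1 null hearts stood beside neighbours that mostly did not pass the test. Within 500 kb on either side 47 other genes were tested, and 1 of them (2.13%) had an adjusted p under 0.05 (edgeR quasi-likelihood), against 1.14% of all tested genes. It was C4a (34809092 to 34823464), a complement component 4 gene, at 1.08, 1.71, 1.14 and 0.593 CPM in HVCN1 null hearts and at 0.278, 0.124, 0.397 and 0.203 CPM in WT hearts. The groups did not overlap, with a log2 fold change of 2.14 (SE 0.42, adjusted p = 0.0441 by edgeR's quasi-likelihood test). Since 30.6% of its stretches of 50 bases also occur in C4b, its counts are uncertain, and the call was lost when 1 of 6 hearts was left out (HVCN1 null hearts 1, 2 or 3, or WT hearts 5, 6 or 8, adjusted p from 0.0965 to 0.136).

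H2-Eb1, the nearest tested gene of the class II set, lies 25.3 kb away, and its transcripts were lower on average in HVCN1 null hearts while those of H2-Ea-ps were present only there. Within 1 Mb on either side 94 other genes were tested and 6 (6.38%) passed, 5 of them higher in HVCN1 null hearts. Besides C4a these were Angptl4, an inhibitor of lipoprotein lipase and the only one lower (log2 fold change -2.89), the heat shock genes Hspa1b (3.02) and Hspa1a (2.67), and 2 MHC genes. The 2 farthest, H2-Q1 and H2-Q2, are MHC class I genes that lie 976 and 998 kb away, with log2 fold changes of 6.28 and 4.69 (edgeR quasi-likelihood adjusted p = 7.77e-04 and 0.00164).

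**Figure D4:**
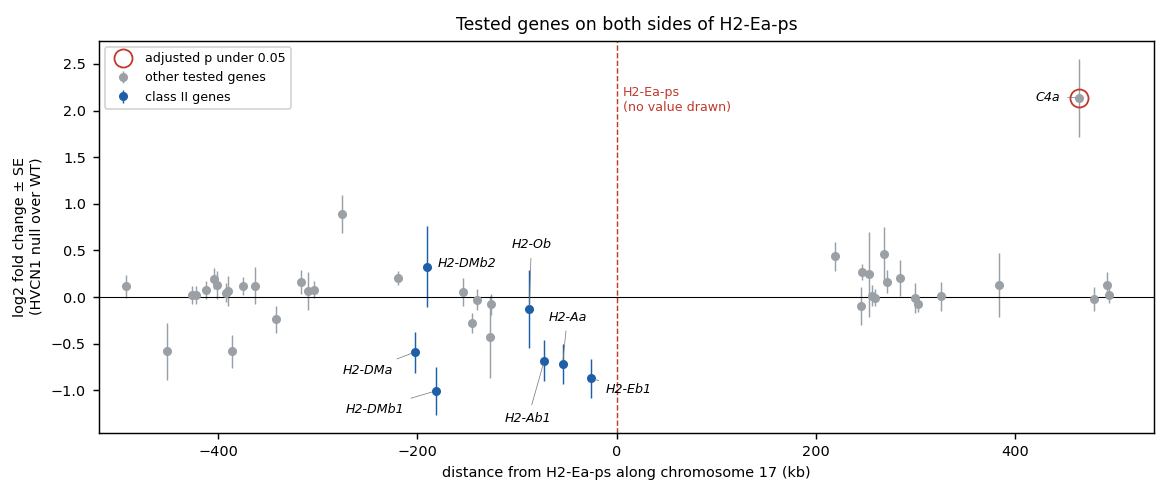
Log2 fold change (HVCN1 null over WT, ± standard error) of the 47 other tested genes within 500 kb of H2-Ea-ps, by distance along chromosome 17; class II genes are blue, other genes grey, and a red circle marks the 1 gene with an adjusted p under 0.05. The class II genes form a cluster on one side between 25.3 and 203 kb from H2-Ea-ps in which H2-DMb2 alone lies above 0, and C4a is at 2.14.

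The genes whose log2 CPM over the 8 hearts was most like that of H2-Ea-ps were Gm14513 (r = 0.999), Eif3j2 (0.996), Selenbp2 (0.994), Hmga1b (0.994) and Gm10260 (0.994), each high in the HVCN1 null hearts and low or at 0 in the WT hearts, so these correlations describe that division between the groups. Of the stretches of 50 bases in Eif3j2, Selenbp2, Hmga1b and Gm10260, between 43.9% and 96.5% also occur in another gene, so counts of these 4 genes are uncertain, as those of H2-Ea-ps are not on this measure. The genes most like H2-Aa, the class II genes aside, were Gm20033 (r = 0.972), Tspan32 (0.963), Homez (0.962), Fam84a (0.958) and Irf5 (0.952), an interferon regulatory factor of myeloid cells. Among all tested genes H2-Eb1 ranked 1 and H2-Ab1 ranked 2 in likeness to H2-Aa, followed by H2-DMb1 at rank 4, H2-DMa at 13 and Cd74 at 29, whereas Ciita ranked 877 and H2-DMb2 ranked 7538.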

How the data were processed

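RNA of 8 mouse hearts was sequenced as 2 × 50 paired reads. Per the labels and the paper, the authors used STAR for alignment and featureCounts for Ensembl genes, and deposited raw, unscaled counts for each gene in each heart. The submitters' processing notes name mm10 and GRCm38 as the build, while the paper's text names a human build. GENCODE M21 (GRCm38) gave symbols and positions for 38872 of 39056 genes. No batch is given.

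From the counts, CPM and log2 CPM (prior count 2) were computed with TMM-scaled library sizes in edgeR 4.0.16 (R 4.3.3). Genes were kept by filterByExpr, which left 14796. HVCN1 null and WT hearts were compared by edgeR's quasi-likelihood test, with p-values adjusted by Benjamini-Hochberg over all kept genes and called under 0.05. Log2 fold changes above 0 mean more transcript in HVCN1 null than in WT hearts. Of all tested genes 1.14% were called, and 11.0% had an unadjusted p under 0.05 in either direction. The counts in every gene list stand against these shares. For single values, ratios and correlations, hearts were permuted exhaustively (exact permutation test, two-sided). The 10 genes and all lists were chosen with earlier results of these data known. Named from each list were the genes called and otherwise the 3 of highest mean CPM, with all called genes within 500 kb of H2-Ea-ps, the 5 genes most like H2-Ea-ps and the 5 most like H2-Aa; other genes named were chosen after their values were seen. Precision was limited by the spread between 4 hearts per group and, for genes with few counts, by totals of 25851255 to 38874640 counts per heart.

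Alternatives were RLE or no scaling, the filter left out or set at a CPM above 1 in 4 or more hearts, DESeq2 1.42.0, voom of limma 3.58.1, an atrial score as covariate, a prior count of 0.5, an adjusted p under 0.01, a window of 1 Mb and each heart left out in turn. The division of hearts at a Myl7 level of 100 CPM, as a block and as an interaction, and the B cell relations of H2-DMb2 and H2-Ob were added after the values were seen. Tests were checked on simulated data. Python 3.11.15 with scipy 1.17.1 and matplotlib 3.10.9 was used for permutation tests and plots.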

Additional observations from a re-analysis of the deposited data

Results flagged for a closer look

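In 27 sets of 4 hearts (a gene or ratio within 1 genotype), the gap between the most extreme heart and its nearest neighbour, divided by the range, was compared with Dixon's critical value, which chance passes in about 1 of 20 sets. It was passed in 3. The H2-DMb2 level of WT heart 5 was 3.21 CPM, while the other WT hearts lay between 1.02 and 1.32 CPM. The H2-Oa level of WT heart 5 was 0.810 CPM, with the next at 0.216 CPM. The log2 ratio of Cd74 to H2-Aa was 2.04 in HVCN1 null heart 3, while the others of its group lay between 1.64 and 1.68. WT heart 5 also had the highest B cell marker sum of its group (38.8 CPM), and the part of B cells in these levels was not tested.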

How the results depend on the processing

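No paired analysis was possible because neither the labels nor the paper pair HVCN1 null hearts with WT hearts. Over all tested genes, 169 passed; the number was 466 with DESeq2, 56 at an adjusted p under 0.01 and 71 (without WT heart 6) to 152 with 1 heart left out. Of the 8 class II genes tested, 0 passed; 1 did without the filter, 3 with DESeq2, 4 with the atrial score, and 0 in each of the 8 fits without 1 heart. Within 500 kb of H2-Ea-ps 1 gene passed; the number was 0 with library sizes not scaled, a CPM above 1 in at least 4 hearts or voom, 3 without the filter, 5 with DESeq2 or the atrial score, 2 with the atrial block, 0 to 1 with 1 heart left out, and 6 within 1 Mb. With 1 heart left out, the following changed sign: the log2 fold change of H2-DMb2, 0.32 in all hearts (-0.0072 to 0.86); that of H2-Ob, -0.13 (-0.58 to 0.30, with 0.09 without HVCN1 null heart 2 and 0.30 without WT heart 5); the ratio of H2-Ab1 to H2-Aa (-0.0057 to 0.087); the CPM difference of H2-Oa (-0.197 to 0.0164); and r of H2-Aa with the B cell (-0.0533 to 0.327), T cell (-0.0190 to 0.298) and atrial (-0.0287 to 0.508) lists. Past the threshold changed r of H2-Aa with Cd74 (0.810 to 0.959) and macrophages (0.446 to 0.956), and of H2-DMb2 with B cells (0.730 to 0.885; adjusted exact permutation p = 0.0557 without HVCN1 null heart 1, 0.122 without 4, 0.0690 without WT heart 5 and 0.0607 without 7). The cause was not tested. For H2-Eb1 the log2 fold change lay between -1.02 and -0.70 over all fits. Genes under 1 CPM, such as H2-Oa, are limited by depth.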
